A study of Rattus norvegicus with 12 samples.

Results

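Matrix metalloproteinases (MMPs) and their tissue inhibitors (TIMPs) were followed in the injured spinal cord of athymic nude (AN) and Sprague-Dawley (SD) rats. The set was 10 genes: the proteases Mmp7, Mmp8, Mmp2, Mmp3, Mmp9, Mmp12 and Mmp14 and the inhibitors Timp1, Timp2 and Timp3. They were selected by name, from AN against SD values of these same data that were already known, so the values below describe the set and do not test it. Of the 10 genes, 8 were matched to a row among the 17423 genes listed, namely 5 proteases and 3 inhibitors. Mmp2 and Mmp9, the gelatinases, were not matched and were not analysed here.

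RNA was sequenced from 12 female rats aged 16 to 18 weeks at injury, all of which received a 200 kdyn contusion of the spinal cord. The 4 groups held 3 rats each, AN (Hsd:RH-rnu/rnu) or SD (Hsd:SD), taken at 1 week (acute phase) or 8 weeks (chronic phase). The tissue was a 1 mm segment through the lesion, perfused with buffered saline. All groups were injured, so no uninjured level is given. Rats homozygous for the nude allele form no working thymus, so that T cells hardly mature. The strains also differ in stock, and stock and nude allele cannot be told apart.

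MMPs are zinc proteases, most of them secreted as inactive proenzymes, that cleave collagens, laminins, fibronectin, proteoglycans and many non-matrix proteins. TIMPs bind the active site of MMPs and block it. After spinal cord injury MMPs come from infiltrating leukocytes, microglia, glia and vessels, and are known for roles in barrier leakage, inflammation and scar remodelling.

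The data hold 1 FPKM value (fragments per kilobase of exon, scaled for library depth) for each group of 3 rats. The paper's methods give quartile normalization at the Cufflinks step. No value per rat was used, so the values here are given without SD, standard error or test, and the depth behind each gene is unknown. A gene was counted as higher or lower at a ratio of at least 2-fold, if it reached 1 FPKM in at least 1 of the 2 groups of the phase (the filter).

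Mmp7, Mmp8, Mmp12 and Mmp3 lie in 1 cluster on chromosome 8. The promoter stretches of these genes are shown because the genes share position and family but differed widely in level. Each line gives the 150 bases before the annotated start, 5′ to 3′ on the plus strand, from RefSeq (build GRCr8). Capitals mark TGANTCA, the letters bound by AP-1 factors such as Fos and Jun, searched on both strands.
Mmp7: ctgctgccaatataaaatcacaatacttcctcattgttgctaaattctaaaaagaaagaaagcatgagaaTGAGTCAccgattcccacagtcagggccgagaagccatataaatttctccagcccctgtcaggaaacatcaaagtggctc
Mmp8: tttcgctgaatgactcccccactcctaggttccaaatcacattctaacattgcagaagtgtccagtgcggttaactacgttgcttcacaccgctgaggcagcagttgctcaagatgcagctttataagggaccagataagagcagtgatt
Mmp12: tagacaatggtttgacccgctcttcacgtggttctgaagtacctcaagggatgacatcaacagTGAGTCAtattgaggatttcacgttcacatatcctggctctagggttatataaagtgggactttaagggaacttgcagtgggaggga
Mmp3: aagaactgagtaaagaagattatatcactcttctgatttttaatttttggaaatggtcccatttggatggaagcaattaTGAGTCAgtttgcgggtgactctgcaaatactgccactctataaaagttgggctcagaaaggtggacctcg
These stretches are chr8:13132893-13133042 for Mmp7, chr8:13008740-13008889 for Mmp8, chr8:12866502-12866651 for Mmp12 and chr8:12925131-12925280 for Mmp3. The match began 80 bases before the start in Mmp7, 87 in Mmp12 and 71 in Mmp3. No match was present in the 250 bases before the start of Mmp8. In the cluster 7 of 10 MMP promoters held the letters, against 0 of 7 promoters of MMP genes elsewhere and 0 of 3 TIMP promoters. Mmp2, Mmp9, Mmp14, Mmp16, Mmp17 and Mmp19, all outside the cluster, had no single promoter entry and were not searched. Among all 33469 rat promoters of this length the share was 6.34%. The letters AGGAAG, bound by ETS factors, were found in 5 of the 10 cluster promoters, 2 of the 7 others and 1 of 3 TIMP promoters, against 29.5% of all promoters. The genes of the cluster are related in sequence, so these promoters are not independent, and a match does not show that a factor binds.

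In the acute phase 1 of the 7 members above the filter, Mmp7, was at least 2-fold higher in AN rats. Among all 11337 genes above the filter 2.09% were. No member was at least 2-fold lower, against 11.5% of all genes. In the chronic phase 3 of 7 members (Mmp7, Mmp8 and Mmp12) were at least 2-fold higher in AN rats, against 2.31% of 11439 genes, and none was lower, against 6.37%. The 7 members had a median log2 AN/SD of 0.50 in the acute phase and 0.60 at 8 weeks, while the median of all genes was 0.00 in both phases. Because the set was drawn from these contrasts, nothing further is read from the shares.

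**Figure D1:**
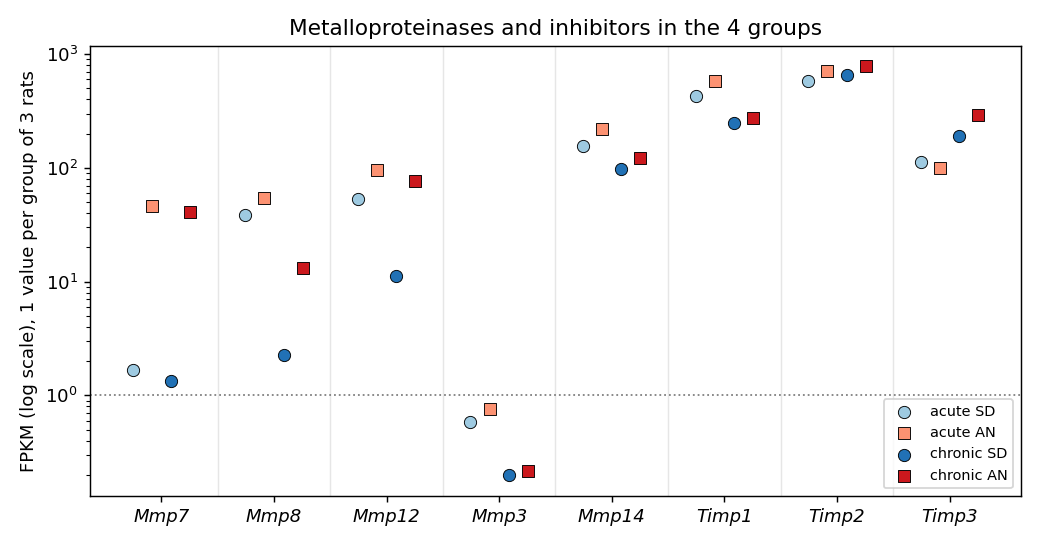
FPKM of the 8 matched members (log axis) in the 4 groups, each point being the authors' value for a group of 3 rats, with no error given. The dotted line is 1 FPKM. Mmp7 stood above 40 in both AN groups and below 2 in both SD groups, and Mmp3 stayed below 1.

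Mmp7 (matrilysin, RGD:3100, chr8:4526017-4533730 on RN4) is a small protease that lacks the hemopexin domain of most MMPs and is best known from epithelia. It was listed at 1.69 FPKM in acute SD and 46.3 in acute AN rats. At 8 weeks the SD value was 1.33 and the AN value 40.6. Both AN groups were thus far above both SD groups. The ratio AN/SD was 27.4 (log2 4.77) in the acute phase and 30.5 (log2 4.93) at 8 weeks. It ranked 2nd from the highest of 11326 genes with a ratio in the acute phase, and 4th of 11429 in the chronic phase. The difference between phases, acute minus chronic, was -0.16 on the log2 scale, near the median of -0.04 over 11108 genes. Within a strain the level of Mmp7 was similar in both phases, at 1.27 times the chronic value in acute SD and 1.14 times in acute AN rats.

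The 2 tables were normalized separately, so levels set across phases, here and below, are a description. Over all genes the median log2 chronic/acute was 0.01 in each strain.

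Mmp8 (neutrophil collagenase, RGD:631408, chr8:4402123-4410976), which cleaves fibrillar collagens, followed another course. Its level was 38.3 FPKM in acute SD and 54.3 in acute AN rats, a ratio of 1.42 (log2 0.50). At 8 weeks SD rats were at 2.27 and AN rats at 13.1, a ratio of 5.78 (log2 2.53). The level was lower in the chronic than in the acute phase in both strains, but by different amounts. Acute SD rats held 16.9 times the chronic SD level and acute AN rats 4.14 times the chronic AN level. The log2 AN/SD differed by -2.03 between phases, beyond the 5th percentile of all genes (-1.07).

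Markers of neutrophils, which store the Mmp8 protein in granules, stood as follows. Of 10 listed, 8 were named and 5 passed the filter in each phase. The 8 summed to 61.7 FPKM in acute SD and 60.5 in acute AN rats, and to 41.8 and 58.2 at 8 weeks. In the acute phase 1 of the 5 was higher in AN rats, at any size, and in the chronic phase 4 of 5 were. Of the granule genes, Elane stayed below 1 FPKM in all groups, and Ltf was at or near 0. Ngp was 1.73 FPKM in acute SD and 0.65 in acute AN rats (log2 -1.41). Lcn2, which injured glia also express, was 13.2 FPKM in SD rats at 8 weeks and 27.9 in AN rats (log2 1.08). Csf3r, the one marker named directly and not by gene order, had log2 ratios of 0.60 and -0.14, opposite to the list medians of -0.58 and 0.85. The part of neutrophils in the Mmp8 values was not tested. In bulk tissue fewer cells of a type and less RNA per cell cannot be told apart.

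Mmp12 (macrophage metalloelastase, RGD:620195, chr8:4249937-4259675), a protease of macrophages that degrades elastin, was close to Mmp8 in its pattern. It was 53.1 FPKM in acute SD and 96 in acute AN rats, a ratio of 1.81 (log2 0.85). At 8 weeks SD rats were at 11.3 and AN rats at 76.5, a ratio of 6.78 (log2 2.76). The SD level in the acute phase was 4.71 times that in the chronic phase, while the AN level was only 1.25 times that in the chronic phase. The acute minus chronic difference was -1.91. Mmp12 in chronic AN rats was therefore above its level in acute SD rats, whereas Mmp8 in chronic AN rats was below its level in either acute group.

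Macrophage and microglia markers moved in the same direction in part. Of 13 listed, 8 were named. In the acute phase 7 of the 8 were higher in AN rats, with a median log2 AN/SD of 0.68. The 8 summed to 5177 FPKM in SD rats against 8286 in AN rats. In the chronic phase 4 were higher and 4 lower, with a median of 0.19 (-0.03 over directly named genes alone) and sums of 2997 and 4850. Most of these sums was Gpnmb, a glycoprotein of lipid-laden macrophages, at 1967 FPKM in SD rats at 8 weeks and 3583 in AN rats. Past 2-fold were Itgam (log2 1.12) and Cd14 (log2 1.17) in the acute phase and Mrc1, the mannose receptor (log2 1.24), in the chronic phase. No named macrophage marker was listed at 0. In the paper, the tissue area stained for the proteins CD68, CD16 or CD163 at 1 week did not differ between strains. The part of macrophage number in the Mmp7 and Mmp12 values was not tested.

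**Figure D2:**
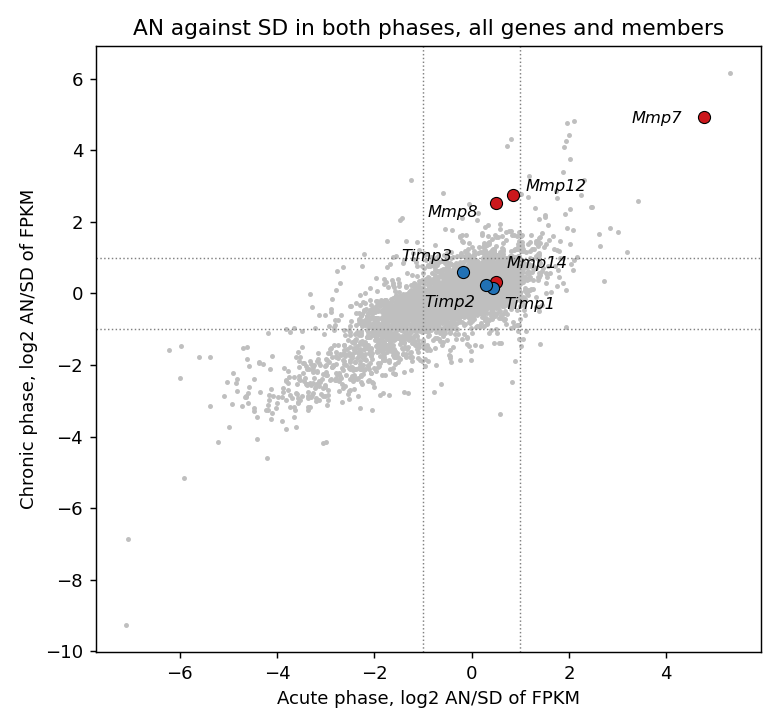
The log2 AN/SD ratio of FPKM in the acute phase (x axis) and the chronic phase (y axis) for genes above the filter in both phases (grey), with MMPs in red and TIMPs in blue. Dotted lines mark 2-fold. Mmp7 stands apart at 4.77 and 4.93, Mmp8 and Mmp12 are past 2-fold only on the y axis, and Mmp14 and the TIMPs lie inside 2-fold on both axes. Mmp3, below the filter, is not drawn.

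Among 8615 named genes above the filter in both phases, those nearest to Mmp8 in both log2 ratios were Mmp12 (larger of the 2 differences 0.35), Tm4sf19 (0.37) and Cpxm1 (0.47). Those nearest to Mmp12 were Lilrb3 (0.31), an inhibitory receptor of leukocytes, then Mmp8 (0.35) and Pf4, platelet factor 4 (0.65). Pf4 was 124 FPKM in SD rats at 8 weeks and 569 in AN rats. No named gene lay close to Mmp7, for which the nearest were Rps10 (2.33), Cd5l (2.53), which macrophages secrete, and Oscar (2.75). Rps10 encodes a ribosomal protein, and such genes have near-identical copies that can share reads, so its value is uncertain. Likeness here rests on 2 ratios alone.

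Mmp3 (stromelysin-1, RGD:621317, chr8:4315600-4329146), which activates other proMMPs, was below the filter in both phases. At 1 week SD rats were at 0.58 FPKM and AN rats at 0.762, and at 8 weeks they were at 0.199 and 0.217. The values were higher in AN than in SD rats in each phase by little, and no ratio is read at this level.

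Of the 10 MMP genes listed in the cluster, only Mmp7, Mmp8 and Mmp12 were above 3 FPKM in any group. Mmp13, the main rodent collagenase, was 1.63 FPKM in acute SD and 2.14 in acute AN rats, and below 1 in the chronic phase. Mmp10 was below 1 in all groups, and Mmp1, Mmp1b, Mmp20 and Mmp27 were at or near 0. The genes beside Mmp7, chosen after their values were seen, were also higher in AN rats. Tmem123, a transmembrane mucin, was 43.3 FPKM in SD and 76.9 in AN rats at 1 week, and 32.5 and 101 at 8 weeks (log2 0.83 and 1.63). Birc2, an inhibitor of apoptosis, was 30.8, 67.1, 22.4 and 50.4 in the same order (log2 1.12 and 1.17). Birc3 was 3.56, 6.54, 4.07 and 5.98 (log2 0.88 and 0.56). The run ended there, as Yap1, the next gene, had log2 ratios of -0.24 and 0.07. On the far side of the cluster Dcun1d5 had log2 ratios of 0.20 and -0.05. Whether these neighbours and Mmp7 are linked was not tested.

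**Figure D3:**
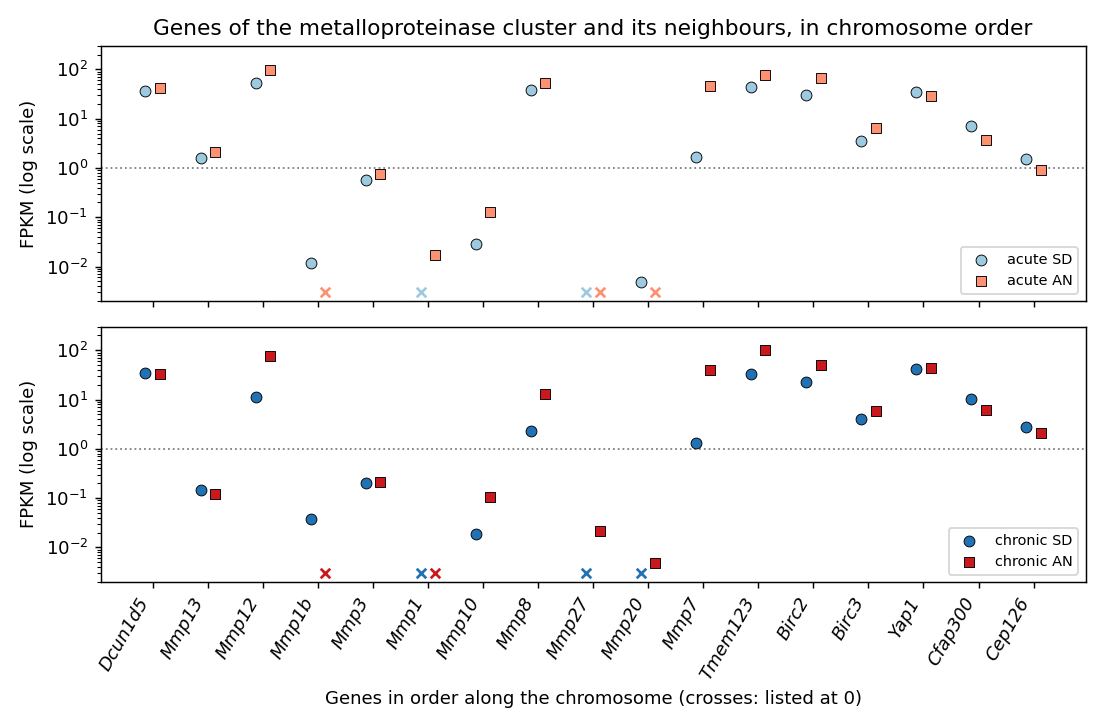
FPKM (log axis) of the 17 listed genes from Dcun1d5 to Cep126 in their order on chromosome 8, acute phase above and chronic phase below, SD as circles and AN as squares. Crosses are values listed at 0 and the dotted line is 1 FPKM. Among genes above 1 FPKM Mmp7 has the widest gap between strains, and Tmem123 and Birc2 beside it are also higher in AN rats.

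Mmp14 (MT1-MMP, RGD:620198, chr15:32493851-32503077) is anchored in the membrane, cleaves collagen at the cell surface and activates proMMP2. It was the most abundant of the MMPs measured. It was 155 FPKM in SD and 220 in AN rats at 1 week (log2 0.50), and 97.8 and 121 at 8 weeks (log2 0.31). The AN value was above the SD value in each phase, inside 2-fold. All 7 named fibroblast markers were also higher in AN rats in both phases, with medians of 0.59 and 0.62. They ran from Dcn at 0.03 to Col3a1 at 0.76 in the acute phase, and from Dcn at 0.49 to Lum at 1.15, past 2-fold, in the chronic phase. Their part in the Mmp14 values was not tested.

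The rows for Timp1 and Timp2 were above every MMP in all 4 groups, and Timp3 was above them in the chronic phase. Timp2 (RGD:61312, chr10:108310472-108358821), which also takes part in proMMP2 activation, was 581 FPKM in SD and 709 in AN rats at 1 week, and 659 and 780 at 8 weeks. Its log2 AN/SD was 0.29 and 0.24. It was the highest member in every group and varied least between phases.

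Timp1, an inhibitor induced by injury and cytokines, could not be named with certainty, since 2 genes of 1 strand share the locus on chromosome X (chrX:12512240-12556160). The row taken as Timp1 (RGD:621675) was 426 FPKM in SD and 580 in AN rats at 1 week, and 248 and 276 at 8 weeks. Its log2 AN/SD was 0.45 in the acute phase and 0.16 at 8 weeks. The other candidate row (RGD:1595128) was 209, 265, 190 and 190 FPKM in the same order. Both rows were within 2-fold between strains in each phase.

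Timp3 (RGD:3865, chr7:19544438-19940847), which is bound to the matrix and also inhibits ADAM proteases, was 112 FPKM in acute SD and 99 in acute AN rats. At 8 weeks SD rats were at 192 and AN rats at 291. It was the one member below SD in the acute phase (log2 -0.18), and it was above SD in the chronic phase (log2 0.60). Unlike the other members of the set it was well above its acute level in the chronic phase, at 1.71 times in SD and 2.94 times in AN rats. The row for Timp3 was named by gene order from 1 named neighbour alone, which is less sure than order between 2. The loci given for Timp2 and Timp3 each hold 1 other gene, and the strand of the libraries is not given in the sources used here, so reads of overlapping genes may not be told apart.

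The summed FPKM of the 5 MMPs over that of the 3 TIMPs was 0.222 in acute SD and 0.3 in acute AN rats. At 8 weeks it was 0.103 in SD and 0.187 in AN rats. The ratio was thus higher in AN rats by 1.35 times at 1 week and 1.82 times at 8 weeks, on transcripts alone and without Mmp2 and Mmp9. Leaving out Mmp14, the most abundant MMP, moved its log2 AN/SD from 0.43 to 0.76 at 1 week and from 0.86 to 2.82 at 8 weeks. The make-up of the MMP sum differed too. Mmp14 was 62.3% of it in acute SD and 52.7% in acute AN rats, and 86.6% and 48.2% at 8 weeks. Mmp12 was 10% of the sum in SD and 30.4% in AN rats at 8 weeks, and Mmp7 1.18% and 16.1%. The ratio of Mmp14 to Timp2, which bind each other at the cell surface, was 0.267 in acute SD and 0.31 in acute AN rats, and 0.148 and 0.155 in the chronic phase.

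Other genes of the system were taken from lists written from general knowledge. For the counts in these and the later lists, the shares of all genes above the filter are the comparison. At 1 week 2.09% of all genes were at least 2-fold higher in AN rats, and 11.5% were lower. Those shares were 2.31% and 6.37% at 8 weeks. The lists are short, and no count was tested against the shares. Among other MMPs, 0 of 5 above the filter at 1 week and 0 of 3 at 8 weeks passed 2-fold in either direction, with medians of -0.03 and 0.01. Mmp15, a second membrane-type enzyme, was 57.4 FPKM in SD and 41.2 in AN rats at 1 week, and 47.1 and 47.4 at 8 weeks. Mmp19 was 60.2, 59, 31.7 and 37.7. The other inhibitors A2m, a plasma protease trap, and Reck, a membrane-anchored inhibitor, were inside 2-fold in both phases, with A2m at 545 FPKM in acute SD and 582 in acute AN rats.

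Of the ADAM and ADAMTS proteases, relatives of the MMPs that shed surface proteins or cleave proteoglycans, 2 of 17 were at least 2-fold higher and 1 lower in AN rats in the acute phase, and 2 of 16 higher in the chronic phase. Adam8, a sheddase of leukocytes, was higher in both, at 22.7 FPKM in acute SD and 79.3 in acute AN rats (log2 1.81) and 2.61 and 7.24 in the chronic phase (log2 1.47). Adamts8 was past 2-fold in the acute phase (log2 1.33) and Adamts7 in the chronic phase (log2 1.12). Adam23, a neuronal adhesion protein, was lower in the acute phase (log2 -1.13).

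Of 14 listed genes of the plasminogen system and MMP activation 9 were named. In each phase 8 of the 9 were higher in AN rats, with medians of 0.31 and 0.39. Plau encodes urokinase, a protease that activates plasminogen and through it proMMPs. It was 58.5 FPKM in acute SD and 108 in acute AN rats (log2 0.89), and 22.3 and 31.2 at 8 weeks (log2 0.48). Among matrix substrates 2 of 16 were at least 2-fold higher in the acute phase, Fn1 (fibronectin, log2 1.06) and Acan (aggrecan, log2 1.07, at 1.32 FPKM or less), and 0 of 15 in the chronic phase. The medians were 0.45 and 0.49, the first of which was -0.30 over directly named genes alone. Of 16 listed factors known at MMP promoters 6 were named, and none of the 6 was past 2-fold in either phase. Fos was 53.6 FPKM in SD rats at 8 weeks and 27.9 in AN rats (log2 -0.94).

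**Figure D4:**
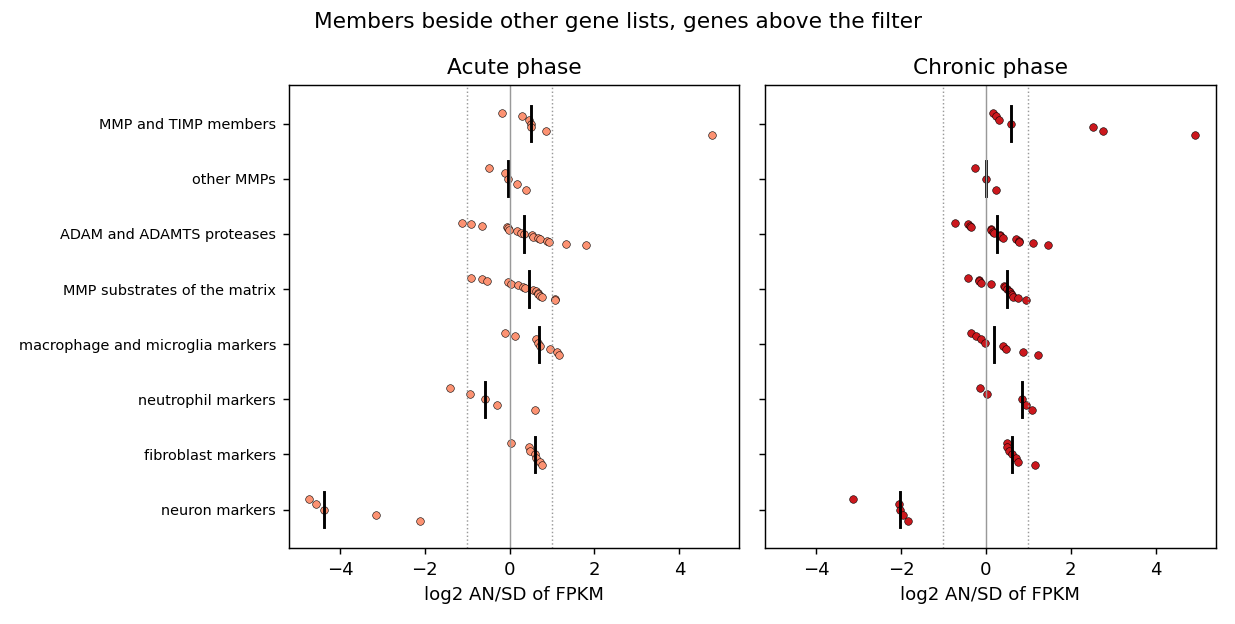
The log2 AN/SD ratio of FPKM for each gene above the filter (points) in 8 lists, in the acute phase on the left and the chronic phase on the right. Bars are list medians and dotted lines mark 2-fold. Mmp7 is the point near 5 in each panel, and the neuron markers lie below -1 in both.

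Markers of other cell types also differed between strains. All 5 named neuron markers were at least 2-fold lower in AN rats in both phases, with medians of -4.37 and -2.02 and a summed level of 672 FPKM in acute SD and 36.8 in acute AN rats. Medians in the acute phase were -1.35 for oligodendrocyte and -1.34 for Schwann cell markers, and -0.26 and 0.21 in the chronic phase. T cell markers summed to 5.26 FPKM in acute SD and 1.21 in acute AN rats, and to 5.32 and 4.15 in the chronic phase. The 3 named astrocyte markers had a median of -1.48 in the acute phase, with Gja1 at 0.12. At 8 weeks Slc1a2 was at -0.27 and Gja1 at -0.15 (median -0.21). Gfap is listed at 0 in SD against 5824 FPKM in AN rats at 8 weeks, so no ratio is given for it. At 1 week Gfap was 3957 FPKM in SD and 1424 in AN rats. The paper reports no differential expression of this astrocyte marker. Whether the listed 0 is a true absence of Gfap or a missing measurement was not tested, and no strain difference is read from it. The 1 named endothelial marker was inside 2-fold in both phases, and the 2 epithelial and ependymal markers went apart, with Cdh1 at log2 -0.06 and 0.35 and Krt19 at -2.46 and -1.69 (medians -1.26 and -0.67). The part of these differences in the MMP and TIMP values was not tested.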

How the data were processed

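RNA from the lesion of 12 rats was sequenced. The submitters' processing notes name FastQC, cutadapt, TopHat 1.5.0, Cufflinks 0.0.6 and Cuffdiff, and the paper's methods give the RN4 genome and quartile normalization. The authors deposited a table for each phase with FPKM values, 1 per group of 3 rats. The phase of each table was taken from its name. Columns of the authors' own comparison (fold changes, test statistics, p-values and q-values) were not used. Depth per gene is not in the tables, so no interval was computed.

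The log2 AN/SD was taken on FPKM as deposited, without a pseudocount, and none was computed against 0. No test was run, since the FPKM columns hold no value per rat and the authors' own test columns were not used. Cut-offs were 1 FPKM in at least 1 group and 2-fold. The members and lists were chosen with earlier results of these data known. Text names all members, list genes past 2-fold (at most 5 per list and phase), the 3 genes nearest in pattern to Mmp7, Mmp8 and Mmp12, and markers beside a result. Neighbours on chromosome 8, values of other genes given for comparison, and the printed promoters were chosen after values were seen.

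The tables list RGD identifiers. Of these 4714 were named directly and 7279 by gene order between named neighbours in RefSeq's GRCr8 table. Of 2250 held-out names 1554 were given again, 97.4% of them right. Naming settings were changed over several versions with this accuracy, list coverage and a misplaced Timp1 in view. Mmp7 and Mmp12 were named directly, and Mmp3, Mmp14 and the TIMPs by order. The identifier of Mmp8 was given in advance, and gene order led to the same row. Timp1 and Timp3 rest on 1 named neighbour each, outside the accuracy above, and Timp1 is in doubt between 2 rows. Protein sequences were not used here, and 1 result on a listed gene is not reported here. Python 3 with pandas and numpy was used. Alternatives were 4 scalings, pseudocounts, filters, thresholds and naming.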

Additional observations from a re-analysis of the deposited data

Results flagged for a closer look

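Timp3 was flagged because its AN/SD ratio pointed in opposite directions in the 2 phases, with log2 values of -0.18 at 1 week and 0.60 at 8 weeks. The acute minus chronic difference was -0.78, inside the 5th to 95th percentile of all genes (-1.07 to 0.54). The acute value is small, the row was named from 1 neighbour alone, and the difference was not tested.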

How the results depend on the processing

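No spread between rats is given, so a value was taken to have moved where it differed by more than 1.5 times from that reported. No paired analysis was possible because the tables hold 1 value per group of rats, and for the same reason no rat could be left out. Of 96 log2 ratios of members under another scaling or pseudocount 94 moved by less, none changed sign among the members past 2-fold, and the exceptions were Mmp7 with a pseudocount of 1 (4.14 at 1 week and 4.16 at 8 weeks). The numbers of members past 2-fold in each direction were alike under the other scalings, pseudocounts, filters and the 4-fold threshold, except that a 1.5-fold threshold gave 2 higher members in the acute phase and 4, with Timp3, in the chronic phase.

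The share of all genes higher in AN rats at 1 week was 1.2% with a pseudocount of 1, 3.19% with no filter, 7.53% at 1.5-fold and 0.309% at 4-fold. At 8 weeks it was 1.46%, 4.1%, 6.36% and 0.49% in that order. The share lower in AN rats at 1 week was 7.58% with a pseudocount of 1, 7.41% with 1 FPKM in both groups, 18.1% at 1.5-fold and 3.89% at 4-fold. At 8 weeks it was 4.05%, 3.97%, 10.7% and 2.26%, and 3.93% with 5 FPKM in 1 group. With genes named directly alone, the acute median was 0.90 for the plasminogen system, against 0.31 over all its named genes. The acute median was then -0.30 for matrix substrates, 0.60 for neutrophil and -2.46 for epithelial and ependymal markers. The chronic median was -0.14 for neutrophil and -1.69 for epithelial and ependymal markers. The chronic median also changed sign for ADAM and ADAMTS proteases (-0.08) and for macrophage and microglia markers (-0.03). The chronic medians of other MMPs (0.01) and promoter factors (0.04) lay too near 0 to keep a sign under the scalings. The acute epithelial and ependymal median was -0.06 under both stricter filters, and the chronic neutrophil median 0.03 with 5 FPKM. The causes were not tested, beyond that fewer genes entered.

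Without Mmp14 the MMP over TIMP sum was 0.0838 in acute SD, 0.142 in acute AN, 0.0137 for chronic SD and 0.0968 for chronic AN rats, and its chronic log2 AN/SD was 2.82. Without Timp2 the sums were 0.462, 0.614, 0.257 and 0.444. Without Timp1, an alternative chosen after seeing the data, the acute sums were 0.359 and 0.516. No MMP over TIMP sum could be formed from directly named genes, since no TIMP was among them.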
